A study of Mus musculus with 2 samples.

Results

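The naive T cell and lymphoid homing genes described here are 9 genes taken from a fixed list of names: *Ccr7*, *S1pr1*, *Klf2*, *Lef1*, *Tcf7*, *Satb1*, *Dapl1*, *Igfbp4*, and *Foxp1*. All 9 were found among the 20299 genes of the count matrix, and no measured value was used to choose them by the rule itself. They were followed in kidney lymphocytes of mice with nephrotoxic serum nephritis (NTN), a model in which antibodies from sheep serum injure the glomerulus, by single-cell RNA sequencing of 3′ transcript ends. Transcripts were counted as UMIs, molecular tags that mark each captured RNA molecule once. There was 1 library from WT mice and 1 from *Vsir-/-* mice, which lack VISTA, an inhibitory checkpoint protein, in the whole body.

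Both groups were C57BL/6 mice of 8 weeks, male by the study's methods, and both had NTN, so no library of uninjured kidney enters any comparison. According to the labels, 200 μg of sheep immunoglobulin G in complete Freund's adjuvant was injected into the peritoneum, and 2 μL per g of body weight of nephrotoxic serum was injected into a vein 4 days later. The study's methods state another dose of serum. Kidneys were digested in liberase at 0.2 mg/mL for 30 minutes at 37°C. The labels describe the WT library as sorted CD45+ cells and the *Vsir-/-* library as kidney cells of all kinds, whereas the methods describe a CD45+ sort. The number of mice behind each library is not given in the sources used here. With 1 library per genotype there were no replicates, and every difference below describes 2 libraries and carries no test. The intervals are 95% intervals that cover counting error only.

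A naive T cell recirculates between blood and lymph nodes until it meets its antigen. *Ccr7* encodes the receptor for the chemokines CCL19 and CCL21 that brings it into the node, and *S1pr1* encodes the sphingosine 1-phosphate receptor through which it leaves. *Klf2* encodes a zinc finger transcription factor that sustains *S1pr1* expression. *Lef1* and *Tcf7* encode HMG-box factors of the TCF/LEF family, *Satb1* encodes a chromatin organizer, and *Foxp1* encodes a forkhead factor that maintains quiescence. *Dapl1*, named for its likeness to death-associated protein, and *Igfbp4*, which encodes a secreted binder of insulin-like growth factors, are known as transcripts of naive T cells. Effector memory (EM) T cells, which live in tissue and blood, have low *Ccr7*. Several of the genes serve other cells too. *Klf2*, *S1pr1*, and *Igfbp4* are expressed in endothelium or stroma, and *Ccr7*, *Foxp1*, *Klf2*, and *S1pr1* in B cells.

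The stretches upstream of 3 of the genes are shown because *Lef1* and *Dapl1* had the closest pair of profiles across the lymphocytes, whereas *Klf2* followed a profile of its own. They are the 250 bases before the first annotated start of each gene in RefSeq, build GRCm38.p6, at chr3:131110047-131110296 for *Lef1*, chr2:59484403-59484652 for *Dapl1*, and chr8:72318812-72319061 for *Klf2*, all on the plus strand. Capitals mark a match to one of 5 short motifs searched on both strands.
Lef1: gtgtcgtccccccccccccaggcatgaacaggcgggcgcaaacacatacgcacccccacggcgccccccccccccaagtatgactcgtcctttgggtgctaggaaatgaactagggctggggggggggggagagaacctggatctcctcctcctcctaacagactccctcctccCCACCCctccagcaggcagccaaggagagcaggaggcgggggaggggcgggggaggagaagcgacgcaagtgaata
Dapl1: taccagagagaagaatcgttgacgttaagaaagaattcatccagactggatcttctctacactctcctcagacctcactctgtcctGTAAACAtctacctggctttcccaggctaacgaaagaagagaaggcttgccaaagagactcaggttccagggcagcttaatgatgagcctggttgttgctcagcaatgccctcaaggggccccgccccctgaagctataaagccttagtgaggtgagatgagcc
Klf2: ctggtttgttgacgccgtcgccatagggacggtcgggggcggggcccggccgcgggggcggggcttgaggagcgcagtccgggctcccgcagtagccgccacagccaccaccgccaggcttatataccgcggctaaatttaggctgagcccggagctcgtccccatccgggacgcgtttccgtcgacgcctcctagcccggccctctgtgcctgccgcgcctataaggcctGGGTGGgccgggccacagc
The motifs were CTTTGA (TCF/LEF factors), CCACCC (KLF factors), GTAAACA (FOXO factors), CCGGAAG (ETS factors), and TGTGGT (RUNX factors). The *Lef1* and *Klf2* stretches each held 1 match to the KLF letters, which 28.1% of all 32851 RefSeq windows of this length held. The *Dapl1* stretch held 1 match to the FOXO letters, present in 3.17% of the windows. No match to the TCF/LEF letters (13.8% of windows), the ETS letters (6.91%), or the RUNX letters (14.0%) was in these 3 stretches. *Lef1* had 4 windows for its annotated starts, and of those not shown, 1 held 2 matches to the TCF/LEF letters and another 2 to the KLF letters. The share of G and C was 71.2% for *Klf2* and 66.4% for *Lef1*, and lower for *Dapl1*. Windows were found for 7 of the 9 genes. A match is a matter of letters, and no binding was measured.

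The WT library held 5470 cells and 32799550 UMIs with a median of 4726.5 UMIs per cell, and the *Vsir-/-* library held 1844 cells and 18601189 UMIs with a median of 6673. The targeted gene *Vsir* had 4278 UMIs in the WT library and 8 in the *Vsir-/-* library, and 5 cell barcodes occurred in both. Cell types are the names the authors gave their clusters. The clusters did not hold the same material in both libraries. Of the 349 *Vsir-/-* cells named non–EM-like CD4+ T cells, 233 had no UMI of 6 T cell receptor and CD3 genes. All *Vsir-/-* cells of that cluster together had a summed level of T markers of 399 CPM (UMIs per 1000000 UMIs of the same cells) against 5498 CPM in the WT library, of 12 endothelial markers of 3510 against 159 CPM, and of 17 tubule markers of 14090 against 0.673 CPM. All 12 endothelial and all 17 tubule markers were detected in these *Vsir-/-* cells, against 5 and 2 in the WT library. Levels are therefore also given in lineage-checked cells, a subset set after the data were seen. These cells had at least 3 UMIs of the T, B, or NK markers of their cluster, a UMI of *Ptprc* (CD45), at most 10 endothelial UMIs, and at most 30 tubule UMIs. The subset kept 850 of 895 WT and 79 of 349 *Vsir-/-* non–EM-like CD4+ T cells, 441 of 489 and 212 of 244 EM-like CD4+ T cells, 649 of 659 and 41 of 50 non–EM-like CD8+ T cells, and 192 of 197 and 27 of 28 EM-like CD8+ T cells. The EM-like CD4+ cluster went against its name in part, since *Cd8a* and *Cd8b1* together were at 294 CPM and *Cd4* at 66.4 CPM in its lineage-checked WT cells, with 347 and 97.8 CPM in the *Vsir-/-* cells.

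In WT mice, all 9 genes were higher in non–EM-like than in EM-like CD4+ T cells, and 8 of 9 were higher in the CD8+ pair. The authors formed the clusters from all genes and showed *Tcf7* and *Lef1* as markers, so these contrasts describe what the cluster names mean in these cells. Of all genes with at least 20 UMIs in the pair, 3.56% were at least 2-fold higher in non–EM-like CD4+ cells and 7.94% in non–EM-like CD8+ cells. In the CD8+ pair, *Ccr7*, *Dapl1*, and *Igfbp4* passed this filter through the non–EM-like cells, with 13, 2, and 5 UMIs in the EM-like cells.

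The homing receptor *Ccr7* stood at 404 CPM (386 to 424) in WT non–EM-like CD4+ cells and at 40.7 CPM (33.6 to 48.9) in EM-like CD4+ cells, a 9.94-fold difference. In the CD8+ pair it stood at 434 CPM (416 to 452) and 15.8 CPM (8.41 to 27.0), a 27.5-fold difference. WT neutrophils, which should lack the T cell genes, had 30.2 CPM (23.8 to 37.9) of *Ccr7*. The EM-like levels of *Ccr7* were thus close to this background, and the CD8+ one was below it. The egress receptor *S1pr1* stood at 367 CPM (349.8 to 386) against 87.1 CPM (76.5 to 98.7) in CD4+ cells and at 213 CPM (201 to 227) against 85.0 CPM (66.3 to 107) in CD8+ cells. The EM-like cells of both lineages therefore kept *S1pr1* above the 31.4 CPM (24.9 to 39.2) of neutrophils.

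Among the transcription factors, *Lef1* was 6.95-fold higher in non–EM-like CD4+ cells (658 against 94.5 CPM) and 7.17-fold higher in non–EM-like CD8+ cells (444 against 62.0 CPM). *Tcf7* differed by 3.47-fold in CD4+ cells (687 against 198 CPM) and by 7.98-fold in CD8+ cells (465 against 58.3 CPM). Within the EM-like cells, *Tcf7* was higher in the CD4+ cluster (182 to 215) than in the CD8+ cluster (43.0 to 77.3), whose intervals did not overlap. *Satb1* differed by 4.05-fold in CD4+ cells (949.8 against 234 CPM) and by 13.5-fold in CD8+ cells (638 against 47.4 CPM). In EM-like CD8+ cells *Satb1* lay under the 86.3 CPM (75.1 to 98.6) of neutrophils. *Foxp1* differed least of this group, by 2.69-fold in CD4+ cells (492 against 183 CPM) and by 2.39-fold in CD8+ cells (395 against 165 CPM), over a neutrophil level of 132 CPM.

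*Klf2* departed from the rest. It was 2.45-fold higher in non–EM-like than in EM-like CD4+ cells (1278 against 521 CPM), but in CD8+ cells the order was turned, with 1074 CPM (1045 to 1103) in non–EM-like and 1647 CPM (1561 to 1737) in EM-like cells, a log2 ratio of −0.62 (−0.70 to −0.53). WT neutrophils had 1301 CPM of *Klf2*, so its level did not separate T cells from myeloid cells. *S1pr5* encodes the receptor for sphingosine 1-phosphate used by effector and NK cells. In lineage-checked WT cells it stood at 0.199 CPM in non–EM-like CD8+ cells, a level at the limit of detection, and at 230 CPM in EM-like CD8+ cells.

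*Dapl1* and *Igfbp4* were the genes with the greatest differences. *Dapl1* had 2470 UMIs in WT non–EM-like CD8+ cells and 2 UMIs in EM-like CD8+ cells, a log2 ratio of 7.65 with an interval of 5.80 to 10.70. In CD4+ cells its levels were 320.5 and 30.3 CPM, a log2 ratio of 3.40 (3.09 to 3.73). *Igfbp4* was 15.4-fold higher in non–EM-like CD4+ cells (729 against 47.5 CPM) and 46.1-fold higher in non–EM-like CD8+ cells (280.0 against 6.07 CPM, the latter from 5 UMIs). The *Igfbp4* molecules of EM-like CD4+ cells were concentrated, since 27 of 489 cells held all 133 of them and 1 cell held 20.

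**Figure D1:**
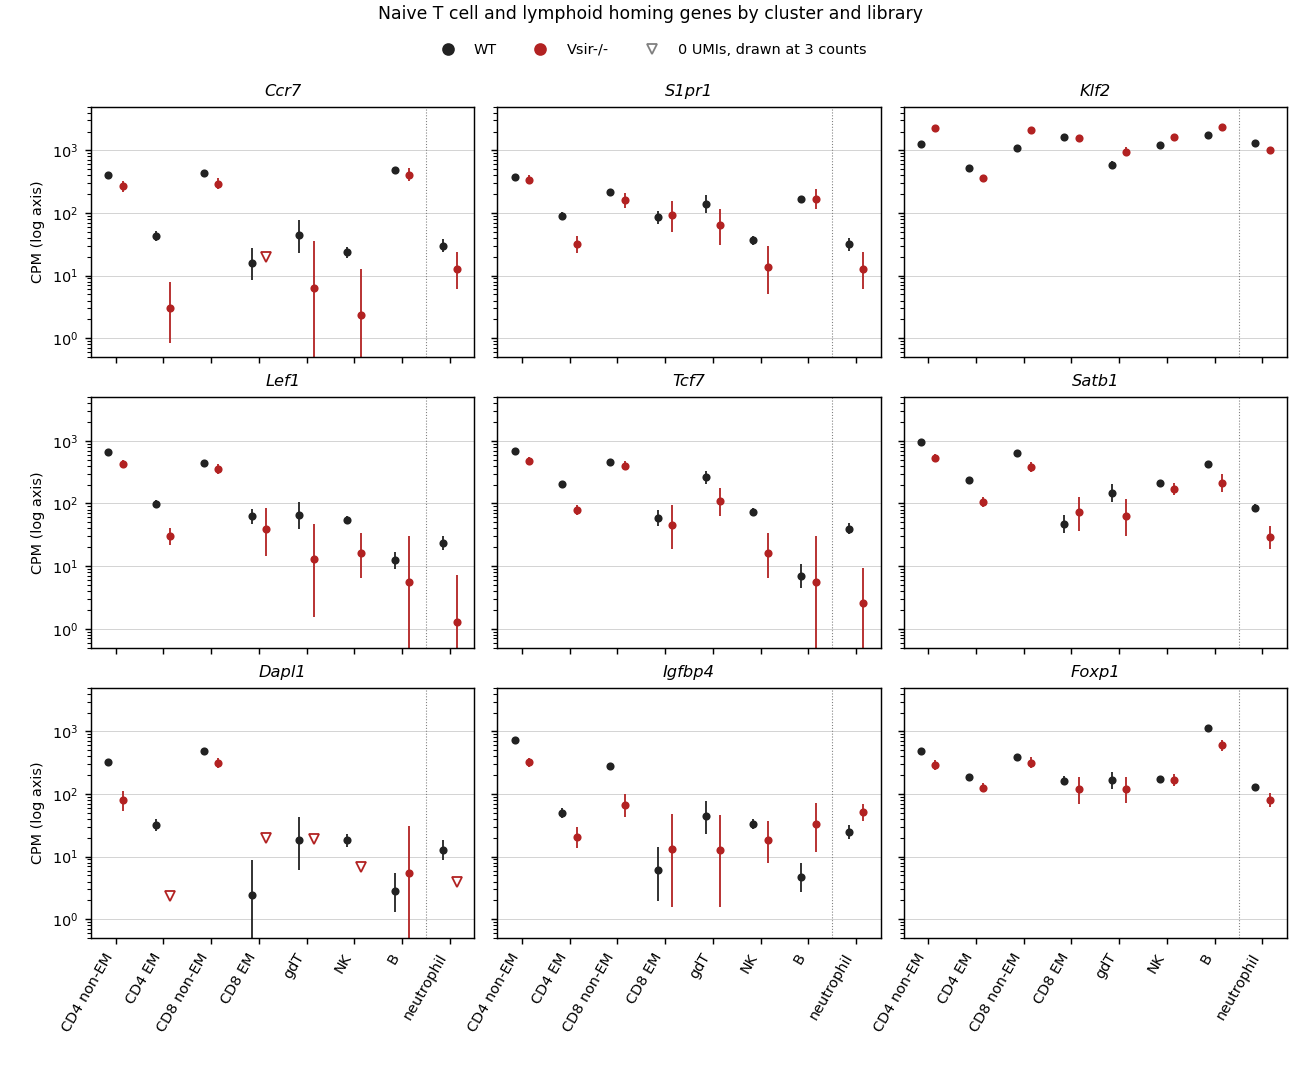
Level of each of the 9 genes in CPM (log axis) in the lineage-checked cells of the T, NK, and B cell clusters and in all neutrophils, with WT in black and *Vsir-/-* in red, 95% Poisson intervals as bars, and open triangles for 0 UMIs drawn at 3 counts. *Lef1*, *Tcf7*, *Dapl1*, and *Igfbp4* stand high in both non–EM-like T cell clusters and at or below the neutrophil level in WT B cells, whereas *Klf2* is high in nearly every cluster.

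Ordering the 9 lymphoid clusters of the WT library by level gave 3 kinds of profile. *Lef1*, *Tcf7*, *Satb1*, *S1pr1*, and *Igfbp4* were highest in non–EM-like CD4+ cells, followed by non–EM-like CD8+ cells, and the intervals of these ranks did not overlap. *Dapl1* had the same leading pair in the opposite order, with 488 CPM (469 to 508) in CD8+ and 320.5 CPM (304 to 338) in CD4+ cells. *Ccr7*, *Foxp1*, and *Klf2* were highest in B cells.

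The *Ccr7* level of WT B cells was 479.8 CPM (457 to 503), above the non–EM-like CD8+ level and the non–EM-like CD4+ level, which themselves overlapped. NKT cells, present in the WT library alone with 94 cells, followed with 184 CPM (147 to 228). This cluster carried 4314 CPM of B markers, against 10301 CPM in WT B cells, beside 1600 CPM of T markers, and their part in its levels was not tested. The remaining clusters lay between 15.8 and 49.9 CPM. *Foxp1* stood at 1127 CPM (1092 to 1163) in B cells, above NKT cells (529 CPM) and non–EM-like CD4+ cells (492 CPM), whose intervals overlapped. *Klf2* stood at 1749 CPM (1705 to 1793) in B cells, and EM-like CD8+ cells overlapped this level. *Satb1* was also present in B cells at 419.5 CPM (398 to 442), rank 3 among the clusters. *Lef1* (12.6 CPM), *Tcf7* (6.89 CPM), *Dapl1* (3.16 CPM), and *Igfbp4* (6.03 CPM) were lower in B cells than in neutrophils. In γδ T cells *Tcf7* reached 267 CPM (210.2 to 335), overlapping EM-like CD4+ cells, and *Lef1* 64.1 CPM (38.0 to 101). WT NK cells were at 1210.3 CPM of *Klf2* and 217 CPM of *Satb1*, while *Ccr7* (23.4 CPM), *S1pr1* (36.7 CPM), and *Dapl1* (18.4 CPM) overlapped the neutrophil intervals.

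Across the 17 cluster-by-library units with at least 20 cells, the levels of *Lef1* and *Dapl1* had a Pearson correlation of 0.92 and those of *Lef1* and *Tcf7* one of 0.88. *Ccr7* was paired most closely with *Foxp1* (0.86). Both had their highest WT level in B cells, as had *Klf2*, whose correlation with *Ccr7* was 0.32. *Klf2* had correlations of −0.20 to 0.49 with the other genes. These units share libraries, depth, and free RNA, so the values are descriptions. Among 10405 other genes, those most like the mean of the 9 included *Gm37065* (0.94), *Il6ra* (0.91), *Rpl36a* (0.90), which codes for a ribosomal protein, and *Gm14085* (0.90). The single most similar gene was *Treml2* for *Ccr7* (0.92), *Trib2* for *S1pr1* (0.92), *Arhgef18* for *Klf2* (0.78), *Nsg2* for both *Lef1* (0.96) and *Dapl1* (0.98), *Gm12840* for *Tcf7* (0.93), *Rpl36* for *Satb1* (0.93), *Il6st* for *Igfbp4* (0.90), and *Bach2* for *Foxp1* (0.96).

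Comparing the libraries asked how loss of VISTA went with these transcripts in the same named cluster. In non–EM-like CD4+ T cells, all 9 genes were at least 2-fold lower in the *Vsir-/-* library when every cell of the cluster was used, against 10.7% of all genes tested. The log2 ratios ran from −1.10 for *Igfbp4* to −5.07 for *Dapl1*, with *Ccr7* at −3.87, *Lef1* at −3.69, *Tcf7* at −3.86, and *Satb1* at −4.11. The markers given above moved with this result, and 48% of all genes were at least 2-fold higher in the same comparison. Among the 116 *Vsir-/-* cells with a T transcript, 7 of 9 genes were at least 2-fold lower, against 9.78% of all genes, and *Klf2* had a log2 ratio of −0.02. These 116 cells still had T markers at 1504 against 5498 CPM, endothelial markers at 4398 against 159 CPM, and tubule markers at 6321 against 0.673 CPM. The part of these RNAs in the count was not tested.

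In the 79 lineage-checked *Vsir-/-* cells, 2 of 9 genes remained at least 2-fold lower, against 12% of all genes. *Dapl1* stood at 79.4 CPM (54.3 to 112) against 320.1 CPM (303 to 337) in WT mice, a log2 ratio of −2.01 (−2.56 to −1.51), with UMIs in 10 of 79 cells. *Igfbp4* stood at 320.1 CPM (267 to 380.4) against 724 CPM (699 to 750.2), a log2 ratio of −1.18 (−1.44 to −0.92). These were the only members past 2-fold in this subset. In another subset of the cluster, 37 *Vsir-/-* and 413 WT cells with a *Cd4* UMI and none of *Cd8a* or *Cd8b1*, 5 of 9 genes were at least 2-fold lower, against 10% of all genes. They were *Lef1* (279 against 663 CPM, log2 ratio −1.25, −1.59 to −0.92), *Tcf7* (−1.45), *Satb1* (−1.44), *Foxp1* (−1.43), and *Dapl1* (58.6 against 348 CPM, −2.57, −3.36 to −1.88). There *Ccr7* had a log2 ratio of −0.99, *S1pr1* of −0.68, *Igfbp4* of −0.75, and *Klf2* of 0.37 (0.22 to 0.51). Unlike the lineage-checked cells, this subset had no limit on endothelial or tubule UMIs. *Dapl1* passed the filter in it through the WT cells, with 17 UMIs against 788. The number of genes past 2-fold in this cluster thus depended on the cells kept, and *Dapl1* was past it in every subset given here.

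In the lineage-checked cells, *Ccr7* stood at 268 CPM (219.9 to 324) against 405 CPM, a log2 ratio of −0.59 (−0.89 to −0.31). The transcription factors *Lef1* (429 against 660.3 CPM), *Tcf7* (484 against 689.7 CPM), *Satb1* (531 against 958 CPM), and *Foxp1* (290.4 against 495 CPM) had log2 ratios between −0.51 and −0.85, and their intervals lay below 0. *S1pr1*, at 340.0 CPM (285 to 402) against 373 CPM (355 to 392), had an interval of −0.40 to 0.12. *Klf2* was higher, at 2315 CPM (2169 to 2469) against 1268 CPM (1234 to 1302), a log2 ratio of 0.87 (0.77 to 0.97). Thus 7 genes leaned lower, *S1pr1* could not be told from the WT level at this depth, and *Klf2* was higher. The checked *Vsir-/-* cells still carried 2057 CPM of tubule markers against 0.694 CPM, with all 17 genes detected against 2, and 3946 CPM of T markers against 5497 CPM. The part of these RNAs in the ratios was not tested.

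The 233 *Vsir-/-* cells without a T transcript held no UMI of *Ccr7*, which allows up to 0.888 CPM, and 25 of *Lef1*, 5 of *Tcf7*, 11 of *Satb1*, and 8 of *Dapl1*. The same cells held 1103 of the 1567 *Igfbp4* UMIs of the cluster, 941 of the 2481 *Klf2* UMIs, 327 of the 521 *Foxp1* UMIs, and 149 of the 359 *S1pr1* UMIs. The cells without a T transcript were 66.8% of the cells of the cluster and held 3378584 of its 4597667 UMIs. The counts of these 4 genes, which are known from other cell types too, are to be read beside that share of all UMIs. Each of the 4 had a smaller share of its own UMIs in these cells. Whether other cell types brought them into the cluster was not tested.

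In EM-like CD4+ T cells, 6 of 9 genes were at least 2-fold lower in the *Vsir-/-* library with all cells, against 5.68% of all genes. In lineage-checked cells 7 of 9 were, against 6.84%. *Ccr7* and *Dapl1* passed the filter through the WT cells in both counts. After every cell was thinned to 1000 UMIs, 2 of the 6 genes still past the filter were at least 2-fold lower. *Ccr7* had 4 UMIs in 3 of 212 lineage-checked *Vsir-/-* cells, 3.08 CPM (0.840 to 7.89), and 114 UMIs in 50 of 441 WT cells, 43.0 CPM (35.5 to 51.7), a log2 ratio of −3.80 (−5.70 to −2.41). *Dapl1* had no UMI in the *Vsir-/-* cells and 85 in 21 WT cells, so it was at least 13.9-fold lower against the limit of 3 counts over the group. *Ccr7* in neutrophils was 12.9 CPM in the *Vsir-/-* library, all from 1 cell, against 30.2 CPM in the WT library. The WT EM-like value of this gene thus lay somewhat above a neutrophil level of similar size. The *Vsir-/-* value lay under its neutrophil level, but a level from 1 cell is a poor measure of background.

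*Lef1* stood at 30.0 CPM (21.4 to 41.1) against 98.9 CPM (87.3 to 112) in these cells, a log2 ratio of −1.72 (−2.24 to −1.23). *Tcf7* stood at 79.3 CPM (64.8 to 96.2) against 205 CPM (188 to 223), a log2 ratio of −1.37 (−1.69 to −1.06), and *Satb1* at 106 CPM (89.3 to 126) against 234 CPM (216 to 253), a log2 ratio of −1.14 (−1.41 to −0.87). All 3 stood above neutrophils of their own library, where *Vsir-/-* cells had 1.29, 2.57, and 29.6 CPM, respectively. These neutrophil levels were lower than those of WT neutrophils for all 3 genes, and the part of this background in the ratios was not tested. *S1pr1* was 31.6 CPM (22.7 to 42.8) against 91.0 CPM (79.9 to 103), a log2 ratio of −1.53 (−2.04 to −1.04). *Igfbp4* had a log2 ratio of −1.27 (−1.93 to −0.67) in lineage-checked cells but of −0.37 (−0.84 to 0.09) in all cells. *Foxp1* (126 against 186 CPM) and *Klf2* (361 against 526 CPM) differed by less than 2-fold, with log2 ratios of −0.56 and −0.54.

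Unlike in the non–EM-like CD4+ cells, T markers of the checked EM-like CD4+ cells were close in the libraries, at 5614 CPM in *Vsir-/-* and 5253 CPM in WT mice. NK markers were 233 CPM against 772 CPM, tubule markers 1837 against 3.40 CPM, and endothelial markers 142 against 84.9 CPM. Their part in these ratios was not tested. In the EM-like CD4+ cells where *Cd4* was detected and both *Cd8* chains were at 0 UMIs, 76 *Vsir-/-* and 92 WT cells, 7 of the 8 genes that passed the filter were at least 2-fold lower, against 5.85% of all genes. *Lef1* had a log2 ratio of −3.26, *Tcf7* of −1.71, *Satb1* of −1.64, *S1pr1* of −2.08, and *Ccr7* of −3.66. *Klf2* (282 against 691 CPM, −1.29, −1.57 to −1.02) and *Foxp1* (78.7 against 201 CPM, −1.35, −1.90 to −0.83) were past 2-fold in these cells but not in the lineage-checked cells. *Igfbp4* was not, at −0.64 with an interval of −1.44 to 0.13. *Ccr7*, *Lef1*, and *S1pr1* passed the filter in this subset through the WT cells, with 2, 7, and 19 UMIs against 29, 77, and 92. No limit on endothelial or tubule UMIs was set for it.

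**Figure D2:**
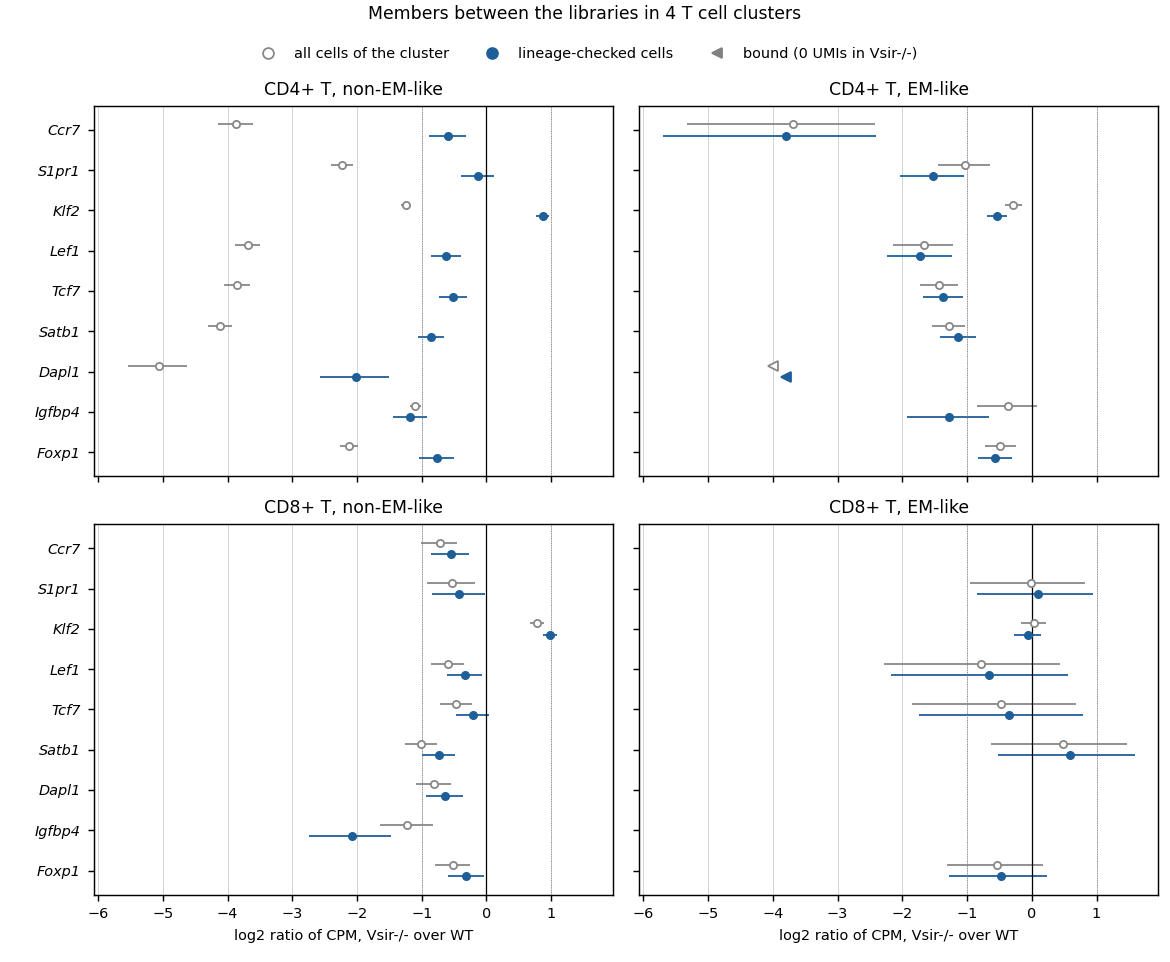
log2 ratio of CPM, *Vsir-/-* over WT, of each gene in the 4 CD4+ and CD8+ T cell clusters, with all cells in open grey, lineage-checked cells in blue, 95% intervals as bars, left-pointing triangles as bounds where the *Vsir-/-* side had 0 UMIs, and dotted lines at 2-fold. In non–EM-like CD4+ cells most points move far toward 0 once cells are checked, and *Klf2* changes side from −1.24 to 0.87. *Igfbp4* stays near its value there, at −1.10 with all cells and −1.18 in checked cells.

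Non–EM-like CD8+ T cells differed less between the libraries. With all cells, *Satb1* (317 against 638 CPM) and *Igfbp4* (119.9 against 280.0 CPM) were at least 2-fold lower, 2 of 9 genes, against 10.1% of all genes. In lineage-checked cells only *Igfbp4* was, at 66.6 CPM (42.2 to 99.9) against 280.0 CPM (266 to 295), a log2 ratio of −2.07 (−2.74 to −1.48), against 12.6% of all genes. *Ccr7* (295 against 434 CPM), *S1pr1* (159 against 213 CPM), *Lef1* (353 against 445 CPM), *Satb1* (382 against 638 CPM), *Dapl1* (313 against 488 CPM), and *Foxp1* (318 against 394 CPM) had log2 ratios of −0.31 to −0.74 with intervals below 0. The interval of *Tcf7* (402 against 465 CPM) spanned 0, from −0.47 to 0.04. *Klf2* was again higher, at 2118 CPM (1968 to 2278) against 1072 CPM (1043 to 1101), a log2 ratio of 0.98 (0.87 to 1.09). Of the 108 *Dapl1* UMIs in the *Vsir-/-* cells, 1 cell held 43. In the same checked cells T markers were 3623 against 4518 CPM, *Cd8a* and *Cd8b1* together 1036 against 1372 CPM, and tubule markers 1352 against 1.39 CPM, and their part in these ratios was not tested.

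In EM-like CD8+ T cells, the *Vsir-/-* library had 28 cells, and none of the 6 genes that passed the filter of 20 UMIs was at least 2-fold lower, against 12.6% of all genes. The intervals of all 6 spanned 0, from −0.16 to 0.22 for *Klf2* to −2.29 to 0.44 for *Lef1*, so differences of that size were not detectable at this depth. *Ccr7*, *Dapl1*, and *Igfbp4* had 0, 0, and 2 UMIs in the *Vsir-/-* cells and 13, 2, and 5 in the WT cells.

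In the *Vsir-/-* library, non–EM-like CD4+ cells were at least 2-fold higher than EM-like CD4+ cells for 3 of 9 genes with all cells, against 34.8% of all genes, for 8 of 9 in cells with a T transcript, against 20.1%, and for 9 of 9 in lineage-checked cells, against 2.95%. The log2 ratios of the checked cells were 6.44 for *Ccr7*, 3.43 for *S1pr1*, 2.68 for *Klf2*, 3.84 for *Lef1*, 2.61 for *Tcf7*, 2.32 for *Satb1*, at least 5.10 for *Dapl1*, 3.94 for *Igfbp4*, and 1.20 for *Foxp1*. *Ccr7* and *Dapl1* passed the filter there through the non–EM-like cells, with 4 and 0 UMIs in the EM-like cells. In the CD8+ pair, 7 of 9 genes were at least 2-fold higher in all cells, against 9.46% of all genes, and 7 of 9 in lineage-checked cells, against 6.38%. With all cells, these 7 passed the filter through the non–EM-like cells, with 0 to 19 UMIs each in the EM-like cells against 53 to 149. In lineage-checked cells the same 7 also passed it through the non–EM-like cells, with 0 to 18 UMIs each against 23 to 139. After thinning to 1000 UMIs, 1 of the 3 genes still past the filter was higher. In lineage-checked cells of this library *Klf2* was higher in non–EM-like CD8+ cells, with a log2 ratio of 0.43 (0.22 to 0.64), but with all cells the ratio was 0.14 with an interval of −0.06 to 0.34. The WT library had −0.62 in both, and the difference between the libraries was not tested.

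**Figure D3:**
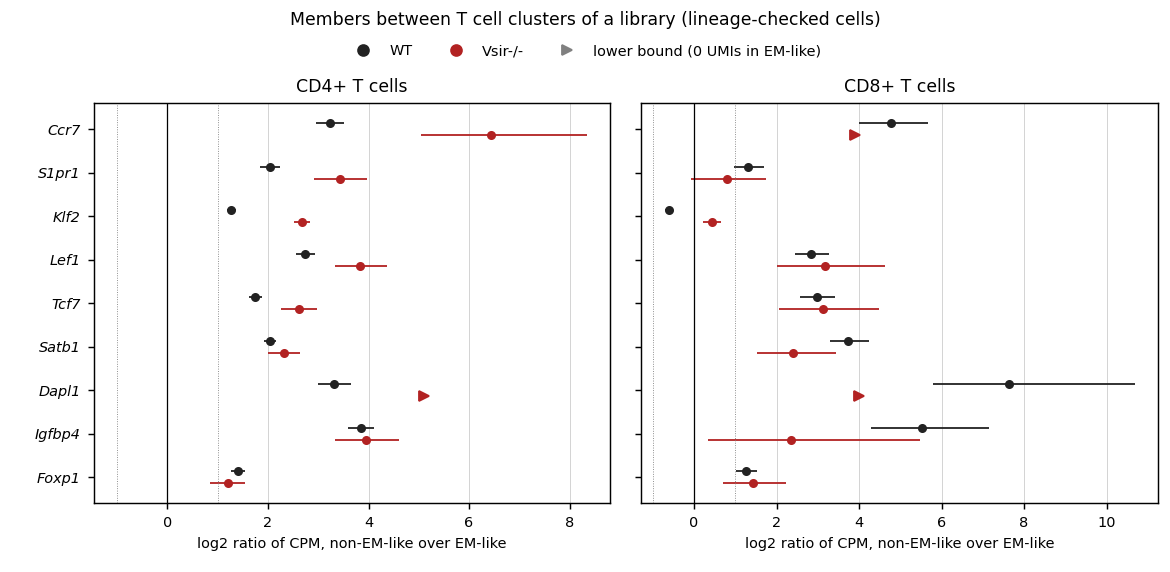
log2 ratio of CPM, non–EM-like over EM-like lineage-checked cells, of each gene in the CD4+ (left) and CD8+ (right) clusters, with WT in black, *Vsir-/-* in red, 95% intervals as bars, and right-pointing triangles as lower bounds where the EM-like side had 0 UMIs. All 9 genes lie above 0 in CD4+ cells of both libraries, and *Klf2* lies at −0.62 in WT CD8+ cells.

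The γδ T cells numbered 28 in the *Vsir-/-* and 46 in the WT library. Among them, 3 of the 6 genes that passed the filter were at least 2-fold lower in the *Vsir-/-* library, against 7.52% of all genes. These were *Lef1* (2 against 18 UMIs, log2 ratio −2.51, −5.66 to −0.44), *Tcf7* (113 against 267 CPM), and *Satb1* (56.4 against 146 CPM). All 3 reached the filter mostly through the WT cells, with 2 to 20 UMIs each in the *Vsir-/-* cells against 18 to 75. *Klf2* was 931 against 567 CPM, a log2 ratio of 0.72 (0.39 to 1.04). *S1pr1* joined the lower genes in lineage-checked cells, with 10 against 38 UMIs, which made 4 of 6 against 8.06%. These 4 also reached the filter mostly through the WT cells, with 2 to 17 UMIs each against 18 to 71. *Ccr7* (1 against 14 UMIs), *Igfbp4* (2 against 17 UMIs), and *Dapl1* (0 against 5 UMIs) did not pass the filter. With all cells of the cluster, tubule markers were 1794 against 3.56 CPM, endothelial markers 570 against 74.8 CPM, dissociation genes 17078 against 6410 CPM, and γδ T markers 2889 against 1272 CPM, with T markers at 4237 against 4518 CPM. Their part in these ratios was not tested.

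In NK cells, *Ccr7*, *S1pr1*, *Lef1*, *Tcf7*, and *Dapl1* were at least 2-fold lower in the *Vsir-/-* library, 5 of 9 genes, against 7.6% of all genes, and the same number were in lineage-checked cells, against 8.65%. All 5 passed the filter through the WT cells, with 0 to 9 UMIs each in the *Vsir-/-* cells against 69 to 278. Their levels were low, with *Tcf7* at 13.8 against 74.0 CPM and *Ccr7* at 1.97 CPM, from 1 UMI, against 23.4 CPM, a log2 ratio of −3.57 (−8.89 to −1.05). After thinning to 1000 UMIs none of the 6 genes that still passed the filter was past 2-fold, and the log2 ratios of *S1pr1*, *Lef1*, and *Tcf7* were −0.13, −0.06, and −0.39. The 67 thinned *Vsir-/-* cells held few UMIs of these genes, and a side at 0 UMIs was set to 3 counts. A 2-fold difference could be missed at these levels, so the thinned ratios do not settle whether the genes differed. T markers in the NK cluster moved with the unthinned values, from 1120 CPM in WT to 481 CPM in *Vsir-/-* cells, and their part was not tested. *Klf2*, abundant in NK cells, was 1584 CPM (1476 to 1698) against 1210.3 CPM (1175 to 1246). *Satb1* and *Foxp1* differed by less than 2-fold, with log2 ratios of −0.42 and −0.21.

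In B cells, *Foxp1* (282 against 1127 CPM), *Satb1* (101 against 419.5 CPM), *Lef1*, and *Tcf7* were at least 2-fold lower, 4 of 8 genes, against 16.7% of all genes. *Lef1* (2 against 44 UMIs) and *Tcf7* (1 against 24 UMIs) had intervals that spanned 0 and WT levels below those of neutrophils, and they passed the filter through the WT cells. *Igfbp4* was higher, at 70.5 against 6.03 CPM, against 15.8% of all genes. The *Vsir-/-* B cells carried 3545 CPM of B markers against 10301 CPM and 2045 CPM of endothelial markers against 147 CPM. In the 32 lineage-checked *Vsir-/-* B cells, 1 of 8 genes was at least 2-fold lower, *Lef1* with 1 UMI, against 12.3% of all genes. *Foxp1* then stood at 602 CPM (495 to 726) against 1129 CPM (1093 to 1167), *Satb1* at 214 CPM (152 to 292) against 425 CPM, *Ccr7* at 411 CPM (323 to 515) against 489 CPM (465 to 514), *S1pr1* at 169.8 CPM against 167 CPM, and *Klf2* at 2399 CPM (2179 to 2634) against 1743 CPM (1697 to 1789). *Ccr7* and *S1pr1* had intervals that spanned 0 there. *Klf2* was higher in the lineage-checked B cells, a log2 ratio of 0.46 (0.32 to 0.60), but lower with all B cells, at 1319 against 1749 CPM, a log2 ratio of −0.41 (−0.52 to −0.29). *Igfbp4* had 6 UMIs against 15, a log2 ratio of 2.78 (1.13 to 4.23), with 10.2% of all genes at least 2-fold higher, and *Dapl1* did not pass the filter, with 1 UMI against 9.

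In the proliferating cluster, 4 genes were at least 2-fold lower in the *Vsir-/-* library (*Lef1*, *Tcf7*, *Satb1*, and *Dapl1*), against 8.98% of all genes, and 2 were higher (*S1pr1*, 119.9 against 45.3 CPM, and *Igfbp4*, 276 against 10.9 CPM), against 38% of all genes. T markers were 651 against 2661 CPM there and endothelial markers 5912 against 58.2 CPM, and their part was not tested. *Dapl1* passed the filter through the WT cells, with 7 UMIs against 36. *Foxp1* (123 against 146 CPM), *Klf2* (746 against 539 CPM), and *Ccr7* (19.8 against 35.8 CPM) differed by less than 2-fold, and 1 cell held 45 of the 88 *Ccr7* UMIs of the *Vsir-/-* cells.

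Single cells were then compared at 1 depth. After each cell was thinned to 1000 UMIs, which left out 167 WT and 78 *Vsir-/-* cells, a WT non–EM-like CD4+ cell had a UMI of *Klf2* in 70.6% of cells, *Satb1* in 55.7%, *Tcf7* in 48.8%, *Lef1* in 47.4%, *Igfbp4* in 38.1%, *Foxp1* in 35.7%, *S1pr1* in 30.8%, *Ccr7* in 29.7%, and *Dapl1* in 20.6%. Without thinning, the shares for *Klf2*, *Ccr7*, and *Dapl1* were 97.2%, 74.6%, and 43.1%. In WT neutrophils, with a median of 3565 UMIs against 4897 in the non–EM-like CD4+ cells, the thinned shares were 0.994% for *Ccr7* and *Lef1*, 1.19% for *S1pr1* and *Tcf7*, 0.596% for *Dapl1*, and 1.39% for *Igfbp4*, but 5.17% for *Satb1*, 9.74% for *Foxp1*, and 65.8% for *Klf2*. The first 6 of these shares were far below those of the non–EM-like CD4+ cells, and that of *Klf2* was not.

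The mean number of the 9 genes detected per thinned cell was 3.77 in WT non–EM-like CD4+ cells and 3.24 in WT non–EM-like CD8+ cells. It was 0.962 in EM-like CD4+ cells, 1.07 in EM-like CD8+ cells, 2.19 in B cells, 1.12 in NK cells, and 0.871 in neutrophils. In the *Vsir-/-* library, non–EM-like CD4+ cells had a mean of 1.16 genes with all cells, 0.496 without a T transcript, 2.46 with one, and 3.03 in lineage-checked cells. Leaving out *Klf2*, 65.1% of lineage-checked WT non–EM-like CD4+ cells (61.8 to 68.3) had at least 3 of the other genes, against 38.0% of the *Vsir-/-* cells (27.3 to 49.6). In lineage-checked non–EM-like CD8+ cells these shares were 49.8% (45.9 to 53.7) and 22.0% (10.6 to 37.6). In EM-like CD4+ cells they were 3.90%, 17 of 436 cells, and 0.474%, 1 of 211 cells. These intervals count cells of 1 library per genotype, and cells are not replicates, so they do not compare the genotypes. Tubule markers in the checked *Vsir-/-* cells were at 2057, 1352, and 1837 CPM in these clusters, against 0.694, 1.39, and 3.40 CPM. Their part in the shares was not tested.

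**Figure D4:**
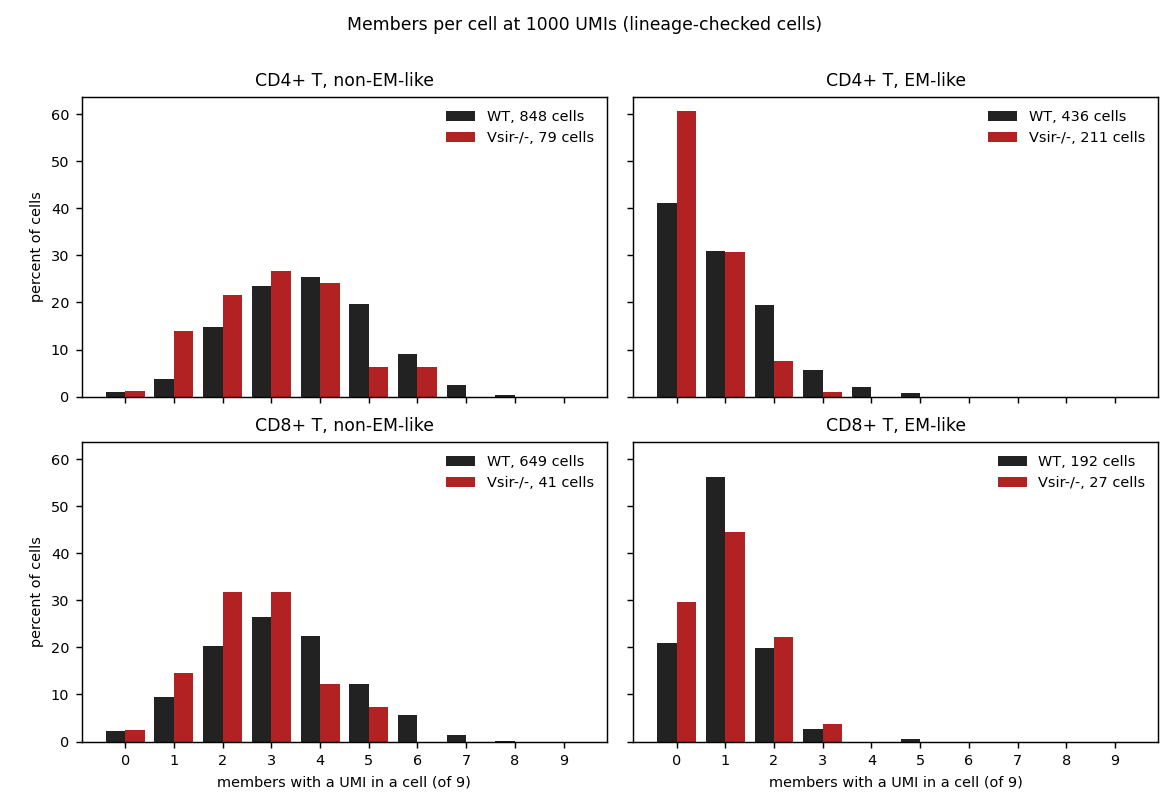
Percent of lineage-checked cells with 0 to 9 of the genes detected after thinning to 1000 UMIs, in the 4 T cell clusters, with WT in black and *Vsir-/-* in red. The non–EM-like WT cells centre on 3 to 4 genes and the EM-like cells on 0 to 1.

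The share of cells that held both genes of a pair was set beside the product of their shares. Only a few of the pairs are given here, without intervals, and they do not describe the other pairs. Whether they depart from the product was not tested. In WT non–EM-like CD4+ cells *Dapl1* and *Igfbp4* were found together in 9.44% of thinned cells, where the product of their shares was 7.83%, and in CD8+ cells in 9.86%, where it was 7.62%. *S1pr1* and *Dapl1* were together in 5.46% of non–EM-like CD8+ cells, against a product of 6.93%.

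Partner genes of the naive state gave the setting for these values. In lineage-checked non–EM-like CD4+ cells, 1 of 28 naive and quiescence genes was at least 2-fold lower in the *Vsir-/-* library and none was higher, with a median log2 ratio of −0.28 beside −0.04 for all genes. The share of all genes lower was 12%. With all cells, 25 of 28 were lower, against 10.7%. *Il7r*, the IL-7 receptor chain of naive cell survival, was 633 against 477 CPM (0.41), and *Foxo1*, which drives *Klf2*, was 107 against 123 CPM with an interval of −0.69 to 0.24. *Btg1*, *Ets1*, and *Btg2*, the most abundant of the list, had log2 ratios of 0.01, −0.28, and 0.26.

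In lineage-checked EM-like CD4+ cells, 6 of the 28 were at least 2-fold lower, against 6.84% of all genes, and none higher, with a median of −0.52 beside −0.05 for all genes. *Il7r* stood at 116 against 211 CPM (−0.86, −1.13 to −0.59), whereas *Foxo1* had an interval of −0.24 to 0.44. *Btg1*, *Ets1*, and *Btg2* had log2 ratios of 0.14, −0.56, and −0.28. In non–EM-like CD8+ cells 1 gene was lower and 1 higher, where 12.6% of all genes were lower and 6.17% higher in lineage-checked cells. *Il7r* had a log2 ratio of −0.37 (−0.63 to −0.11) there.

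Of 17 genes of the sphingosine 1-phosphate and homing axis, 8 were measured in non–EM-like CD4+ cells and 9 in EM-like CD4+ cells, and none was past 2-fold in lineage-checked cells. *S1pr4*, another receptor of lymphocytes for sphingosine 1-phosphate, had log2 ratios of 0.28 (−0.30 to 0.81) and −0.68 (−1.06 to −0.31). *Gnai2*, the G protein subunit through which these receptors signal, had ratios of −0.05 and −0.06. The integrin genes *Itga4* and *Itgal* had log2 ratios of 0.60 and −0.21 in non–EM-like CD4+ cells and of −0.38 and −0.06 in EM-like CD4+ cells. Of the paralogs of the 9 genes, 2 of 10 measured in non–EM-like CD4+ cells were higher and 1 lower, and 5 of 13 were higher and 1 lower in EM-like CD4+ cells. Of all genes, 7.7% and 6.25% were higher and 12% and 6.84% lower in these clusters. *Klf6* was among the higher ones, at 782 against 348 CPM (1.17) and 966 against 352 CPM (1.46). *Igfbp7*, a gene of endothelium, had 54 UMIs against 0 in non–EM-like CD4+ cells, and *Igfbp5* had 6 against 0.

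Of the activation, effector, and residency genes, 6 of 11 measured in lineage-checked non–EM-like CD4+ cells were at least 2-fold higher in the *Vsir-/-* library and none lower, and 2 of 20 were higher and 2 lower in EM-like CD4+ cells. Of all genes, 7.7% and 6.25% were at least 2-fold higher in these cells of the 2 clusters, and 12% and 6.84% lower. The EM-like counts were thus near the shares of all genes. *Cd69*, whose protein removes S1PR1 from the cell surface, was 799 against 405 CPM (0.98, 0.81 to 1.15) in non–EM-like and 619 against 544 CPM (0.19) in EM-like CD4+ cells. *Cd44*, the memory marker, was 47.1 against 12.3 CPM (1.94, 1.10 to 2.72) and 203 against 148 CPM (0.46). *Ccl5*, a chemokine of effector cells, had log2 ratios of −0.53 (−1.18 to 0.05) and 0.00, but of 1.53 (1.40 to 1.67) in non–EM-like CD8+ cells. *Nkg7* and *Id2* had ratios of 1.12 and 1.60 in non–EM-like and of −0.21 and 0.12 in EM-like CD4+ cells.

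Genes known to respond to tissue dissociation were higher in the *Vsir-/-* library in 9 of 14 measured in non–EM-like CD4+, 13 of 15 in EM-like CD4+, and 11 of 15 in non–EM-like CD8+ lineage-checked cells, against 7.7%, 6.25%, and 6.17% of all genes, respectively, and none was lower. Their summed level was 12071 against 4893 CPM in non–EM-like CD4+, 14932 against 5498 CPM in EM-like CD4+, and 8853 against 3497 CPM in non–EM-like CD8+ cells. *Junb* had log2 ratios of 1.61, 1.54, and 1.29 in these clusters, *Jun* of 1.38, 1.51, and 1.43, and *Jund* of 0.66, 0.29, and 0.68. The part of this response in the levels of the 9 genes, *Klf2* included, was not tested.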

How the data were processed

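The authors made 1 WT and 1 *Vsir-/-* library of kidney cells. The submitters' processing notes name build mm9, Seurat 3.2.3, R 4.0.3, and Cell Ranger 3.1.0. The deposited matrix holds whole-number UMI counts per gene and cell, without normalization, and a deposited cell table lists mitochondrial percent, cluster, and library. Deposited score columns hold coordinates of an embedding and were not used. No deposited cell had over 10% mitochondrial or under 501 UMIs. Removal of doublets is not given in the sources used here, and none were called here.

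UMIs were summed by the authors' cluster and library and divided by all UMIs of the same cells (CPM). Levels have exact Poisson intervals, ratios exact conditional intervals, and shares Clopper-Pearson intervals, all at 95%. A side at 0 UMIs was set to 3 counts over the group. Genes with at least 20 UMIs in a comparison entered the counts past 2-fold. Cells were thinned without replacement with seed 20. Similarity used log2(CPM + 10) of genes with at least 200 UMIs. The 9 genes, the gene lists (naive and quiescence partners, sphingosine 1-phosphate and homing axis, paralogs, activation, dissociation stress, and cell markers), and the alternatives were chosen with earlier results of these data known, and the lineage-checked subset after the data were seen. Named besides the 9 are the fixed partners reported here (*Il7r*, *Foxo1*, *S1pr4*, *S1pr5*, *Cd69*, *Cd44*, and *Ccl5*), the 3 most abundant genes of each non-marker list, and the most similar genes, and some genes that this rule names are not reported here. Proteins were not compared, and promoter windows are of another build than the counts, which carry no coordinates. Work was done with matplotlib 3.10.9, pandas 2.3.3, scipy 1.17.1, and numpy 2.4.6 under Python 3.11.15, and the steps were tested on simulated data.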

Additional observations from a re-analysis of the deposited data

Results flagged for a closer look

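Several of the 9 genes differed between the libraries in opposite directions in different clusters, and these differences were not tested. The log2 ratio of *S1pr1*, *Vsir-/-* over WT, was −2.23 in the non–EM-like CD4+ cluster and 1.41 in proliferating cells. That of *Klf2* was −1.24 in the non–EM-like CD4+ and 0.78 in the non–EM-like CD8+ cluster. That of *Igfbp4* was −1.22 in the non–EM-like CD8+ cluster and 4.65 in proliferating cells. All of these values used every cell of the cluster. In lineage-checked cells *Klf2* was higher in both clusters, with log2 ratios of 0.87 in the non–EM-like CD4+ and 0.98 in the non–EM-like CD8+ cluster. *S1pr1* was then at −0.13 (−0.40 to 0.12) in the non–EM-like CD4+ cluster, and *Igfbp4* at −2.07 in the non–EM-like CD8+ cluster. The proliferating cluster was not checked in this way. Endothelial markers were at 5912 CPM in the proliferating *Vsir-/-* cells against 58.2 CPM in the WT cells, and in the non–EM-like CD4+ cluster at 3510 against 159 CPM, and their part was not tested.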

How the results depend on the processing

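No paired analysis was possible because each genotype has 1 library, and for the same reason no replicate could be left out. For the genes at least 2-fold lower in the *Vsir-/-* library, the 9 of non–EM-like CD4+ T cells became 2 in lineage-checked cells, and *Klf2* reversed there from −1.24 to 0.37 in cells with a *Cd4* and no *Cd8* UMI and to 0.87 in lineage-checked cells. The 6 of EM-like CD4+ T cells became 2 of the 6 still past the filter after thinning to 1000 UMIs. The 2 of non–EM-like CD8+ T cells became 1 without mitochondrial and tubule UMIs in the denominator, 1 with a T transcript required, 1 with equal weight of cells, and 1 in lineage-checked cells. The 3 of γδ T cells became 0 after thinning, where only 1 gene still passed the filter, and 5 at a filter of 5 UMIs. The 5 of NK cells became 0 of the 6 still past the filter after thinning. The 4 of B cells became 2 of the 5 still past the filter after thinning, 2 at a filter of 50 UMIs, and 1 in lineage-checked cells. The 4 of proliferating cells became 1 of the 5 still past the filter after thinning. For the genes at least 2-fold higher in non–EM-like than in EM-like *Vsir-/-* cells, the 3 of CD4+ cells became 6 at no more than 5% mitochondrial UMIs, 8 with a T transcript required, 5 with equal weight, 5 after thinning, and 9 in lineage-checked cells, and the 7 of CD8+ cells became 1 of the 3 still past the filter after thinning. Thinning leaves fewer genes past the filter by its construction. It also leaves fewer UMIs per group, so a 0 set to 3 counts stands for a higher level and can hide a 2-fold difference. Genes that still passed lost the call in NK and EM-like CD4+ cells, and thinning does not settle whether they differed. The cause of these and the other shifts was not tested. The mean number of genes per non–EM-like CD4+ *Vsir-/-* cell, 1.16, became 3.03 in lineage-checked cells. At 2000 UMIs the means became 1.67 in WT and 0.970 in *Vsir-/-* EM-like CD4+ cells, and 4.89 in WT and 3.58 in *Vsir-/-* non–EM-like CD8+ cells. Leaving out the cell with the most UMIs kept 62 of 65 ratios between libraries within their intervals. A denominator without mitochondrial and tubule UMIs kept all 65. Other alternatives moved more of these ratios. Thinning to 1000 UMIs moved 27 and kept 16, and equal weight of cells moved 20 and kept 45. The limit of 5% mitochondrial UMIs moved 18 and kept 45. In lineage-checked cells 20 moved, 1 reversed, and 35 were kept. Of the ratios between clusters of a library, thinning moved 22 and kept 7. The WT counts of 9 and 8 genes higher in non–EM-like CD4+ and CD8+ cells stayed within 1.5-fold under every alternative tried. The 27 to 28 EM-like CD8+ cells of the *Vsir-/-* library limit what could be seen there.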
